A study of Mus musculus with 4 samples.

Results

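The 29 genes described here encode proteins of the myelin sheath and of the mature oligodendrocyte, the glial cell that wraps axons of the brain and spinal cord in myelin. They were selected by symbol among the 31053 genes of the deposited matrix, and all 29 were found. They were grouped by role into 8 myelin sheath membrane proteins, 2 adhesion proteins of the sheath surfaces, 3 junction proteins, 3 cytoskeleton-linked proteins, 4 lipid enzymes, 2 transcription factors and 7 enzymes, secreted or support proteins. The data were single-nucleus RNA profiles of the superior colliculus, a visual and multisensory midbrain centre, of C57BL/6J mice at embryonic day 19 (E19) and postnatal days 4, 8 and 21 (P4, P8 and P21). All groups were of this one inbred strain with no treatment given in the labels. Each stage was 1 library of tissue pooled from several animals, so stages were compared without replicates, no test was made and every difference between stages is a difference between 2 libraries. The sources used here do not give the sexes or the number of animals.

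Oligodendrocytes arise from precursor cells (OPC) that divide, leave the cycle as committed cells and then assemble myelin. The sheath is a spiral of compacted membrane, rich in galactolipids and cholesterol, that is held to the axon by adhesion proteins and sealed at its edges by junctions. In the rodent midbrain most of this assembly takes place after birth. Because nuclei were profiled against a reference that included introns, the values report nuclear transcripts, both unspliced and spliced, and not the mature messages that oligodendrocytes carry into their processes.

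The matrix held 9724 nuclei, of which the deposited annotation placed 550 in the oligodendrocyte lineage. These were 47 of 2585 nuclei at E19 (1.82%), 54 of 2386 at P4 (2.26%), 143 of 2504 at P8 (5.71%) and 306 of 2249 at P21 (13.6%). The annotation divided the lineage into 3 subtypes. OPC numbered 46, 42, 109 and 64 nuclei at E19, P4, P8 and P21. Committed oligodendrocytes numbered 1, 12, 33 and 55 nuclei over the same stages. Myelinating oligodendrocytes numbered 0, 0, 1 and 187. Each library held 19277512 to 31325079 counts of unique molecular identifiers (UMIs), and lineage nuclei had a median of 4197, 4056, 4736 and 7253 UMIs at the 4 stages. Across libraries 9 barcodes were shared, 1 of them with a lineage nucleus. Summed levels of 5 precursor markers were 9956 to 12203 counts per 1000000 UMIs (CPM) in OPC at the 4 stages and 172 CPM in myelinating nuclei at P21. Summed levels of 7 markers of committed cells were 15032 and 11333 CPM in committed nuclei at P8 and P21, against 1545 to 3139 CPM in OPC and 1621 CPM in myelinating nuclei at P21. Most of the committed sum at P21 came from Fyn, Bcas1 and Tcf7l2 (3664, 3545 and 2687 CPM). Neu4 and Gpr17 were not higher in committed nuclei than in OPC at P21 (158.5 against 304 CPM, and 278 against 297 CPM), whereas the other markers were. Of 3 Schwann cell markers, 2 were at 0 in myelinating nuclei at P21 and the sum was 5.10 CPM. Neuron markers were present in every lineage profile of 20 or more nuclei at 284 to 885 CPM in sum, against 3048 and 4153 CPM in excitatory and inhibitory neurons at P21; their part in the values below was not tested. Subtype names in such data rest on expression, which may include these genes, so differences between subtypes are descriptions.

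RefSeq (GRCm38.p6) listed transcription start sites for 22 of the 29 genes; Mbp, Fa2h, Myrf, Enpp2, Trf, Car2 and Ndrg1 were not among them. Sequences upstream of the start are shown for 6 genes from 2 groups described below, set by the level in committed nuclei as a percentage of that in myelinating nuclei at P21. Aspa, Mog and Hapln2 were from the group under 25%, and Mobp, Cldn11 and Ugt8a from the group at 50% or more. Within each group they were the 3 genes with 1 listed start and the largest ratio of myelinating nuclei to OPC. The bases lie 5′ to 3′ on the gene's strand and end at the start site, or before the first exon base of the GENCODE M21 annotation where the window overlapped it. Capitals mark matches on either strand to CTGGNAC, the core motif bound by MYRF, and to ACAANG, the core motif bound by SOX proteins. The windows are chr11:73324638-73324887 (minus strand, inside the annotated gene body, from a start that is in no GENCODE transcript), chr17:37023399-37023648 (minus), chr3:88027584-88027761 (minus), chr9:120149492-120149706 (plus), chr3:31149670-31149919 (plus) and chr3:125938653-125938902 (minus, from a start that is in no GENCODE transcript).
Aspa: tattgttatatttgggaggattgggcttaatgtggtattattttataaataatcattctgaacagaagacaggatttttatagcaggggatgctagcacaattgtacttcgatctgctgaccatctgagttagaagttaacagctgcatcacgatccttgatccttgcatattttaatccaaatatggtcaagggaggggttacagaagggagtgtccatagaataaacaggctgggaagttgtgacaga
Mog: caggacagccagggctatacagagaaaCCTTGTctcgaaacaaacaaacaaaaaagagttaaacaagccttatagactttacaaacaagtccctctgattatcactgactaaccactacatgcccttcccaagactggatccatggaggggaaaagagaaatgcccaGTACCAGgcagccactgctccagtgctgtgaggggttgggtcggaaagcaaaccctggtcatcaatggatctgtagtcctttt
Hapln2: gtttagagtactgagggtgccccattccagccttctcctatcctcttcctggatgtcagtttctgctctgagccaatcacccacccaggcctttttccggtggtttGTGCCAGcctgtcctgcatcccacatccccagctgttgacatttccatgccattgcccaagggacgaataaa
Mobp: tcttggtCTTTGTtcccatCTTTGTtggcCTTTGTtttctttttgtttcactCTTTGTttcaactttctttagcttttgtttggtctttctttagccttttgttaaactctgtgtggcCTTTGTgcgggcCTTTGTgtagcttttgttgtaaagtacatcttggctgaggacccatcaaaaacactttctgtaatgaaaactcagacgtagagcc
Cldn11: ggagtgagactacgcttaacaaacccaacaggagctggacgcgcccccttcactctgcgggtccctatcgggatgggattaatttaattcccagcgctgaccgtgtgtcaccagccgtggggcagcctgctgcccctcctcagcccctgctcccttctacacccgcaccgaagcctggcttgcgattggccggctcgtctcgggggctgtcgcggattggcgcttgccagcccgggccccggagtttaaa
Ugt8a: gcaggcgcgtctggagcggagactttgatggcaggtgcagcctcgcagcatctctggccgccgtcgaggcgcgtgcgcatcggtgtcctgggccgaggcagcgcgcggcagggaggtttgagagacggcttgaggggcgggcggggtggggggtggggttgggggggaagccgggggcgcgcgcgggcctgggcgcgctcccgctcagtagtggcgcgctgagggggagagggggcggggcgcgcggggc

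The Mobp window held 6 matches to ACAANG, all read as CTTTGT on the gene's strand. Of 32851 promoter windows of 250 bases, 5 (0.0152%) held 6 or more such matches, Mobp among them. Mog held 1 match to each motif, at 83 bases (CTGGNAC) and 223 bases (ACAANG) upstream of the start. Hapln2 held 1 CTGGNAC match at 144 bases, and an ACAANG match at 35 bases that lies in the part not shown. Aspa, Cldn11 and Ugt8a held neither motif in this window. Base composition differed among the 6 genes, with GC contents of the 250 upstream bases of 38.8% (Aspa), 40.8% (Mobp), 46.8% (Mog), 52.4% (Hapln2), 63.6% (Cldn11) and 76.8% (Ugt8a) against a median of 52.4% over all promoters. Counted over all 32 windows of the 22 genes, several of which overlap for genes with more than 1 start, CTGGNAC occurred in 8 (25%) and ACAANG in 18 (56.25%), against 16.1% and 36.3% of all promoter windows. Both the genes low in committed nuclei (13 windows, 4 with CTGGNAC and 7 with ACAANG) and those high in committed nuclei (15 windows, 4 and 9) included windows with each motif. A match of letters is a description of the window and not a binding site.

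At E19 the lineage held 952 CPM of the 29 genes together (95% counting interval 820 to 1098). The P4 library was at 2025 CPM (1844 to 2219), the P8 library at 2093 CPM (1989 to 2200) and the P21 library at 24534 CPM (24334 to 24735). The intervals of P4 and P8 overlapped, and P21 stood 11.7-fold above P8. In all nuclei of each library, without use of the annotation, the sums were 191, 244, 264 and 2230 CPM, an 8.45-fold difference between P21 and P8. In such a whole-library sum, more cells of a type and more RNA per cell cannot be told apart. Intervals in this text are exact Poisson or Clopper-Pearson intervals and cover counting error only. Changes of single genes are given as log2 ratios of CPM with 5 CPM added to each value, which understates the change of low genes, and a gene was counted as called where this ratio was 2 or more (4-fold). From P8 to P21 in the lineage, 22 of the 29 genes were called higher and 0 lower, with a median log2 ratio of 3.63. Among the 2511 genes that reached 100 CPM in either profile, 10% were called higher and 7.13% lower, and their median was -0.01. Among the 17588 genes with a UMI, 2.15% were called higher and 1.74% lower. From P4 to P21, a comparison that shares the P21 library, 24 were called higher and 0 lower (median 3.51, or 3.17 with genes at 0 UMIs set to an upper limit of 3 counts). The background there was 9.58% higher and 9.47% lower among genes that reached 100 CPM, and 2.67% and 3.5% among genes with a UMI. Between P4 and P8, 0 of the 29 genes were called in either direction; the background was 0% higher and 0.0431% lower, or 0.259% and 0.168% of genes with a UMI. The make-up of the lineage moved with these values: myelinating nuclei were 1 of 143 lineage nuclei at P8 and 187 of 306 at P21. When only subtypes with at least 20 nuclei at both stages were used and weighted alike, the median log2 ratio was 1.18 from P8 to P21 with 8 genes called, and 1.04 from P4 to P21 with 6 genes called. The first value used OPC and committed nuclei and the second OPC alone, so neither included myelinating nuclei.

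**Figure D1:**
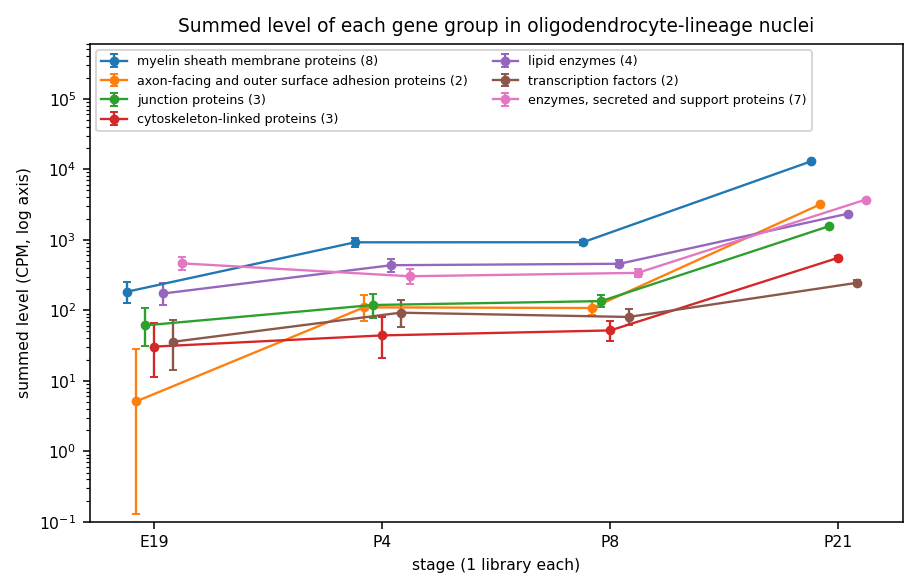
Summed CPM (log axis) of each of the 7 gene groups in oligodendrocyte-lineage nuclei at E19, P4, P8 and P21, with the number of genes in brackets; points are single libraries, offset sideways for legibility, and bars are 95% Poisson intervals. Every group stood higher at P21 than at P8, for example junction proteins at 1562 against 135 CPM and transcription factors at 245 against 80.4 CPM, while P4 and P8 lay close together.

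Among the membrane proteins, Mbp (chr18:82475146-82585637), whose basic product compacts the cytoplasmic faces of the membrane, was present in the lineage at all stages, at 158, 814, 822 and 7349 CPM. The E19 value rested on 1 nucleus: the only committed nucleus of that stage held 26 of the 31 Mbp UMIs. Mbp at P21 was 8.95-fold its P8 level (8.25 to 9.72). Mobp (chr9:120149707-120181484), another small basic protein of compact myelin, was at 0 UMIs in all lineage nuclei of E19, P4 and P8 and at 8069 UMIs (3430 CPM) at P21, at least 839-fold higher than at P8. Mal, a raft-associated proteolipid, and Opalin, a transmembrane glycoprotein of oligodendrocytes, were likewise at 0 UMIs at the 3 earlier stages and at 478 and 470 CPM at P21. In the lineage these 3 genes thus had UMIs at P21 only, as had Ermn (below), whereas Mbp was present throughout. Over all nuclei of the E19, P4 and P8 libraries, Mobp had 0, 86 and 3 UMIs. Mal had 5, 21 and 7 UMIs there, and Opalin 2, 0 and 2. Tspan2, a tetraspanin, stood at 10.2, 52.8, 43.6 and 944 CPM. Pllp (plasmolipin) stood at 10.2, 48.4, 49.1 and 187 CPM and was not called between P8 and P21 (log2 ratio 1.83). Tmem88b, a transmembrane protein, was at 6.81 CPM at P8 and 76.5 CPM at P21, and Tmem125, another, at 1.36 and 14.9 CPM.

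The adhesion genes differed in the size of their change between P8 and P21. Mag (chr7:30899176-30914873), which holds the innermost myelin membrane to the axon, was at 5.09, 106, 96.7 and 1597 CPM over the 4 stages (1, 24, 71 and 3757 UMIs). Mog (chr17:37010743-37023398), an immunoglobulin-domain protein of the outermost sheath surface, was at 0, 4.40, 10.9 and 1573 CPM (0, 1, 8 and 3700 UMIs). Mag was 16.5-fold higher at P21 than at P8 (13.1 to 21.2) and Mog 144-fold (73.2 to 334), and the counting intervals of these folds did not overlap. Of the junction genes, Cldn11, which forms the tight junctions between sheath layers, was at 20.4, 61.6 (all 14 UMIs in committed nuclei), 20.4 and 837 CPM and was called (log2 ratio 5.05). Gjc3, a connexin, was at 30.5, 57.2, 112 and 702 CPM (2.60). Gjb1, the connexin of sheath gap junctions, reached 23.4 CPM at P21 from 2 UMIs at P8 and was not called (1.88).

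Cnp, an abundant protein of the non-compact cytoplasmic channels, was at 30.5, 44.0, 49.1 and 317 CPM in the lineage. Ermn, which links to actin, was at 0 UMIs at E19, P4 and P8 and at 214 UMIs (91.0 CPM) at P21. Anln, a scaffold for septin filaments that is also used in cell division, was at 0, 0, 2 and 347 UMIs. All 3 were called from P8 to P21. The lipid enzymes were of 2 kinds. Ugt8a, which makes galactosylceramide, was at 61.1, 145, 144 and 840 CPM, Gal3st1, which sulfates it, at 56.0, 114, 110 and 299 CPM, and Fa2h, which hydroxylates its fatty acid chains, at 50.9, 172, 200 and 733 CPM. At E19 these values rested on 10 to 12 UMIs, and 7 of the 10 Fa2h UMIs came from the only committed nucleus, with 3 UMIs (15.7 CPM) in 46 OPC. The 3 genes were at 0.434 to 7.88 CPM in excitatory and inhibitory neurons of that library. The P21 to P8 folds of Ugt8a, Gal3st1 and Fa2h were 5.82, 2.71 and 3.66. Aspa (chr11:73304992-73329596), which releases acetate from N-acetylaspartate, was seen as 1 UMI at each of E19, P4 and P8 and as 1093 UMIs (465 CPM) at P21.

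Myrf, the transcription factor that drives myelin genes, was at 30.5, 92.4, 80.4 and 188 CPM, 2.34-fold higher at P21 than at P8 (1.78 to 3.12) and not called. Nkx6-2, a homeobox factor, was at 1 UMI at E19, 0 at P4 and P8, and 134 UMIs (57.0 CPM) at P21. In the last group, Prr5l (chr2:101714285-101883027), which encodes a partner of the mTOR kinase complex, was at 1 UMI at E19, 0 at P4 and P8 and 3856 UMIs (1639 CPM) at P21, at least 401-fold higher than at P8. Enpp2, which encodes the secreted enzyme autotaxin, was at 427, 273, 317 and 1607 CPM and so was well above 0 at every stage. Car2 (carbonic anhydrase) was at 6.81 CPM at P8 and 170 CPM at P21, Qdpr, which regenerates tetrahydrobiopterin, at 12.3 and 96.5 CPM, and Ndrg1 at 2.73 and 90.5 CPM. Hapln2, which links hyaluronan in the matrix around nodes of Ranvier, had 1 UMI at P4, 0 at E19 and P8, and 265 UMIs (113 CPM) at P21. Trf, which encodes the iron carrier transferrin, had 0 UMIs in all 550 lineage nuclei and 1 UMI in the whole matrix. The gene Gm20425, annotated on the same strand over almost all of Trf (chr9:103190208-103230307 against chr9:103204001-103230444), had 0 UMIs as well, so Trf enters every count of 29 as not called. The part of this overlap in the 0 of Trf was not tested, and the 0 is not to be read as absence of the transcript.

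Within P21, the 3 subtypes could be compared inside 1 library. The 29 genes summed to 1770 CPM in OPC (1622 to 1927), 17754 CPM in committed nuclei (17381 to 18132) and 30986 CPM in myelinating nuclei, or 3.10% of all their UMIs. Between OPC and myelinating nuclei, 24 genes were called higher and 0 lower, with a median log2 ratio of 3.30. Among the 2669 genes that reached 100 CPM, 13.5% were called higher and 18.8% lower, with a median of -0.08, and among the 16187 genes with a UMI 3.39% and 6.28%. Gjc3, Gal3st1, Pllp and Gjb1 (3.74-, 3.32-, 2.60- and 3.25-fold) and Trf were the genes not called. Among the 1839 genes with at least 100 CPM in myelinating nuclei, 6 of the 29 were in the 20 largest ratios over OPC, and Prr5l ranked 2, Mag 9 and Mobp 14. From OPC to committed nuclei 11 genes were called higher and 0 lower, with a median log2 ratio of 1.55. The background was 10.5% higher and 15% lower among genes that reached 100 CPM, and 3.02% and 5.81% among genes with a UMI. From committed to myelinating nuclei 10 were called higher and 0 lower (median 0.91), against 6.3% and 7.8%, or 1.59% and 1.85% of genes with a UMI. The same step from OPC to committed nuclei could be read at P8, where 8 of the 29 were called higher (Mbp, Tmem88b, Mag, Mog, Cldn11, Cnp, Fa2h and Myrf) and 0 lower. There the background was 4.96% and 5.63%, or 1.46% and 2.95% of genes with a UMI. Mag, at 61 UMIs in 33 committed nuclei and 0 UMIs in 109 OPC, was at least 49.6-fold higher. Subtypes of 1 library share its depth, its handling and the RNA that was free in its suspension.

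**Figure D2:**
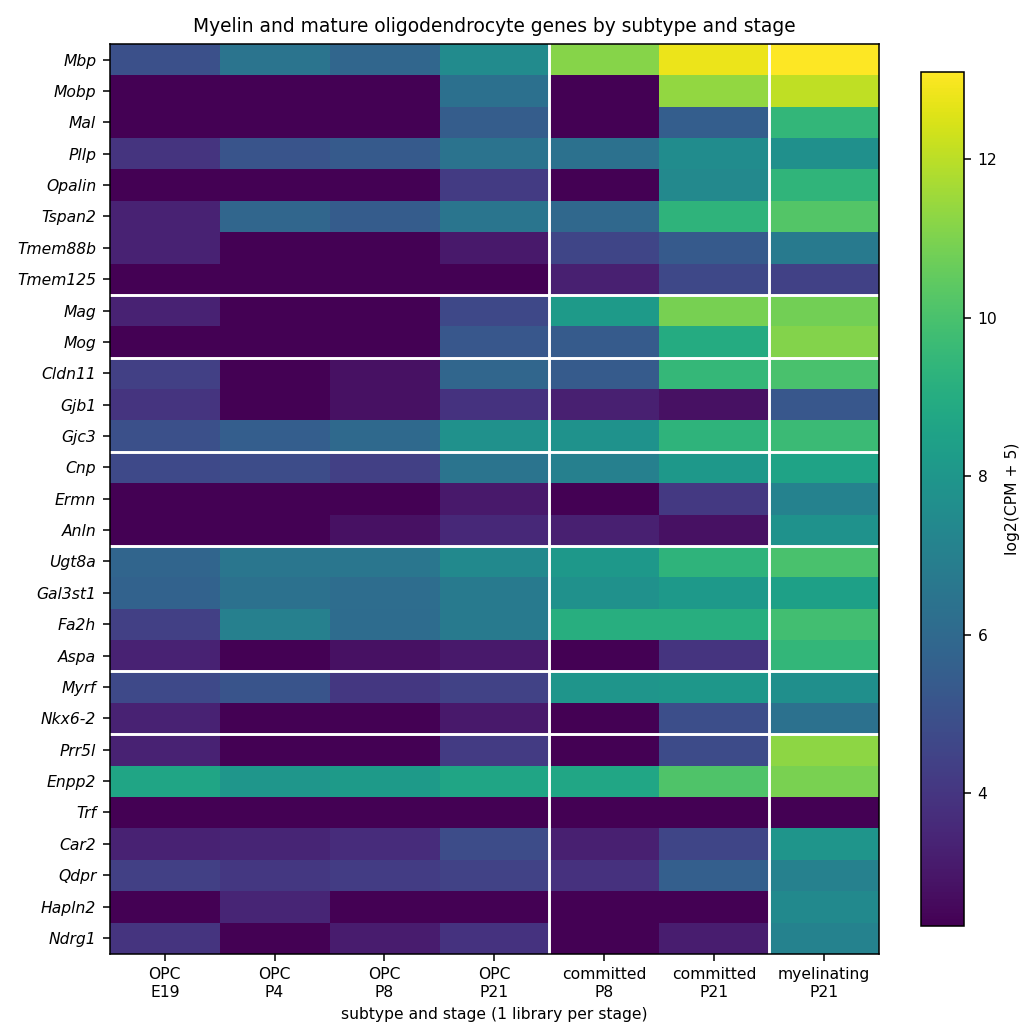
Level of the 29 genes, as log2(CPM + 5), in the 7 combinations of subtype and stage with at least 20 nuclei; white lines separate the gene groups and the subtypes, and levels are to be read along a row, since genes differ in length. The bottom of the scale is 0 UMIs: Mobp, Mal and Opalin lie there in OPC at E19, P4 and P8 and in committed nuclei at P8, Hapln2 lies there in committed nuclei at both stages, and Trf lies there throughout.

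Genes differed in how much of their myelinating level was already present in committed nuclei. For each of the 28 genes with UMIs, the level in committed nuclei at P21 was expressed as a percentage of the level in myelinating nuclei of the same library. Under 25% lay 10 genes: Hapln2 (0%), Prr5l (0.92%), Anln (0.94%), Aspa (1.48%), Ndrg1 (3.10%), Mal (5.91%), Gjb1 (6.33%), Car2 (7.56%), Ermn (9.35%) and Mog (22.6%). Between 25% and 50% lay Opalin (25.3%), Nkx6-2 (32.0%), Qdpr (33.7%) and Tmem88b (36.1%). At 50% or more lay 14 genes, from Tspan2 (53.1%), Enpp2 (57.2%), Fa2h (58.5%), Mobp (60.4%) and Ugt8a (62.8%) through Cnp (69.0%), Cldn11 (71.2%), Mbp (79.5%), Gjc3 (79.6%), Gal3st1 (80.2%) and Pllp (87.8%) to Mag (107%), Myrf (128%) and Tmem125 (129%). Mog, on the threshold's lower side, and Opalin, just above it, were neighbours at 22.6% and 25.3%. Tmem125 rested on 10 committed and 25 myelinating UMIs. Its fold of myelinating over committed nuclei was 0.77 (0.36 to 1.81), so its place in the order was not resolved. Over the 361 genes of the whole matrix with at least 100 CPM that were 4-fold or more higher in myelinating nuclei than in OPC, the median was 52.3%, 27.7% lay under 25% and 52.1% at 50% or more. The 22 genes of this group among them had a median of 34.9%, with 9 under 25% and 10 at 50% or more, so that both ends of the order were also common among other genes of the lineage.

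At the low end, several genes rested on few UMIs in committed nuclei. Anln and Gjb1 had 1 each, Ndrg1 2, Ermn 6 and Car2 9. Anln, Ndrg1 and Car2 were at 0.0182, 0.0364 and 0.164 UMIs per committed nucleus. These values were not above the highest of neurons, astrocytes and vascular leptomeningeal nuclei of the library (0.0504, 0.338 and 0.376). Prr5l had 11 UMIs in 55 committed nuclei and 3841 UMIs in 187 myelinating nuclei, a 108-fold difference in level (60.4 to 217). Per committed nucleus this was 0.200 UMIs, against 0.0471 to 0.157 in neurons, astrocytes and vascular leptomeningeal nuclei of the library. Aspa had 5 and 1087 UMIs (67.4-fold, 28.8 to 208), Anln 1 and 344 UMIs, and Hapln2 0 and 265 UMIs, at least 27.4-fold. Mal was at 40.1 CPM in OPC, 41.2 CPM in committed nuclei and 697 CPM in myelinating nuclei, but the values of OPC and committed nuclei (0.188 and 0.364 UMIs per nucleus, 0.0969 to 0.328 and 0.222 to 0.562) were not above the 0.213 to 0.265 of neurons, astrocytes and vascular leptomeningeal nuclei beyond counting error. At the other end, Mag was at 20.03, 1925 and 1797 CPM, level between committed and myelinating nuclei (0.93-fold, 0.87 to 1.01) and 96.1-fold above OPC in committed nuclei. This level was carried by the upper part of the committed nuclei, whose median was 4 Mag UMIs (quartiles 1 and 32, highest 99) against a mean of 17. Myrf was at 16.7, 255 and 200 CPM, lower in myelinating than in committed nuclei (0.78-fold, 0.63 to 0.97). Adhesion proteins of the 2 sheath faces thus stood apart, with Mag of the axonal side at 107% and Mog of the outer side at 22.6%, and among lipid enzymes Fa2h, Ugt8a and Gal3st1 lay at 58.5% to 80.2% and Aspa at 1.48%. Among connexins, Gjc3 lay at 79.6% and Gjb1 at 6.33%, the latter from 1 UMI in committed nuclei.

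**Figure D3:**
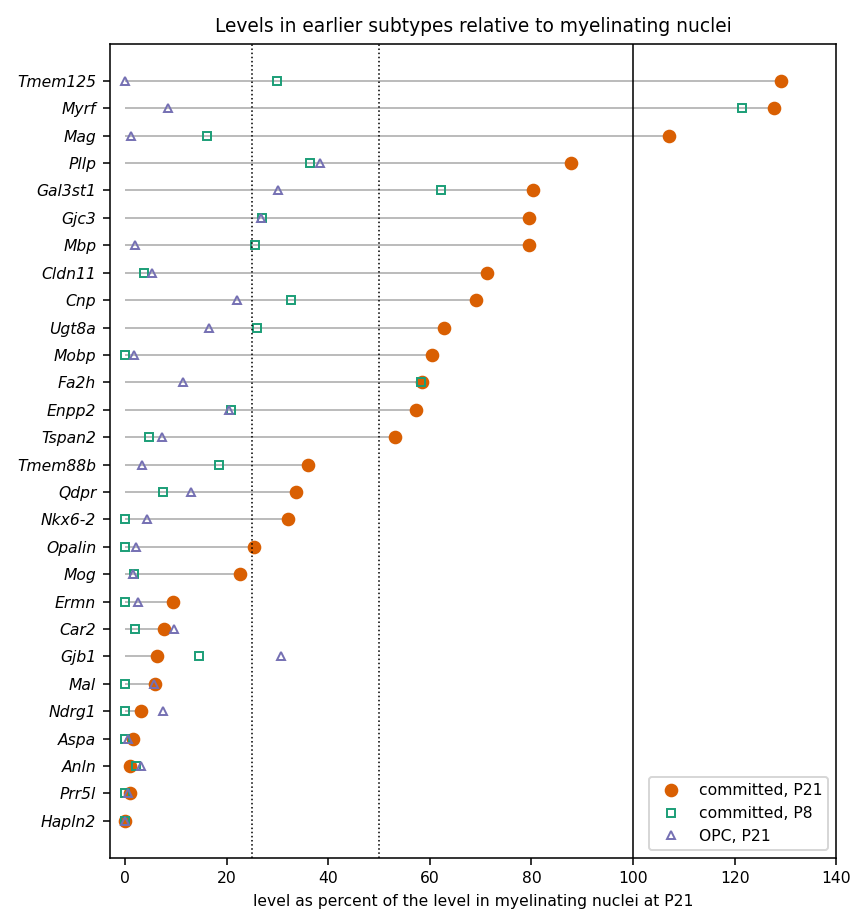
Level of 28 genes as a percentage of the level in myelinating nuclei at P21 (solid line, 100%), in committed nuclei at P21 (filled circles), committed nuclei at P8 (squares) and OPC at P21 (triangles); dotted lines mark 25% and 50%. Genes are ordered from Hapln2 at 0% to Tmem125 at 129% in committed nuclei at P21, and the squares of Fa2h and Myrf lie beside their circles whereas that of Mobp lies at 0.

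Committed nuclei were also compared between P8 (33 nuclei) and P21 (55 nuclei). At P8 their summed level was 4825 CPM (4533 to 5131), against 17754 CPM at P21, and the 12 committed nuclei of P4 stood at 5447 CPM (4867 to 6076). The median log2 ratio from P8 to P21 was 1.44, with 9 genes called higher and 0 lower, against 6.82% higher and 3.63% lower of 2317 genes that reached 100 CPM, and 2.45% and 2.39% of 14167 genes with a UMI. Mobp was at 0 UMIs at P4 and P8 and at 1269 UMIs (2612 CPM) at P21, at least 183-fold higher than at P8. Cldn11 was at 238 CPM at P4 (14 UMIs), 38.1 CPM at P8 (8 UMIs) and 727 CPM at P21, and Tspan2 at 50.9, 57.1 and 638 CPM. Of the 3 epithelial or ependymal markers, 1 was present in the committed nuclei of P4, at 933 CPM, against 4.76 and 4.12 CPM in sum at P8 and P21; its part in the P4 value of Cldn11 was not tested. Mog was at 17.0, 38.1 and 498 CPM and Mag at 407, 290 and 1925 CPM. Mbp was at 2902, 2265 and 7012 CPM, so that its difference between P8 and P21 was smaller (3.10-fold, 2.81 to 3.41). Fa2h, at 305, 533 and 535 CPM, and Myrf, at 271, 243 and 255 CPM, were level between P8 and P21 (1.00-fold, 0.80 to 1.26, and 1.05-fold, 0.75 to 1.49). The other lipid enzymes lay between, with Gal3st1 at 1.29-fold (0.91 to 1.85) and Ugt8a at 2.43-fold (1.82 to 3.28).

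The P21 committed nuclei were spread widely. They held 16 to 585 UMIs of the 29 genes each (quartiles 37.5, 87 and 243), whereas myelinating nuclei held 75 to 693 (192, 241 and 308). Mobp had a UMI in 29 of the 55 nuclei and 5 or more in 23, with a highest value of 124, while its lower quartile was 0. With every nucleus thinned to 3100 UMIs, which left out 1 committed nucleus at P21 and 7 and 6 OPC at P8 and P21, the median sum was 2 and 5.5 UMIs in OPC at P8 and P21, 11, 10 and 35.5 in committed nuclei at P4, P8 and P21, and 96 in myelinating nuclei. Committed nuclei at P21 ranged from 8 to 119 thinned UMIs and overlapped both the highest OPC of P21 (15) and the range of myelinating nuclei (57 to 133). Of the 29 genes, a median of 9 was detected per thinned committed nucleus at P21 and 18 per myelinating nucleus. The share of thinned committed nuclei with Mobp was 0% at P8 (0 of 33, which allows up to 10.6%) and 42.6% at P21 (29.2% to 56.8%; 52.7% before thinning). In thinned excitatory neurons and astrocytes of P21, which should lack the gene, it was 3.38% and 13.3% (19.9% and 23.0% before thinning, at median depths of 19601 and 5525 UMIs). The share with Fa2h in committed nuclei was 75.8% (57.7% to 88.9%) and 74.1% (60.3% to 85.0%).

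**Figure D4:**
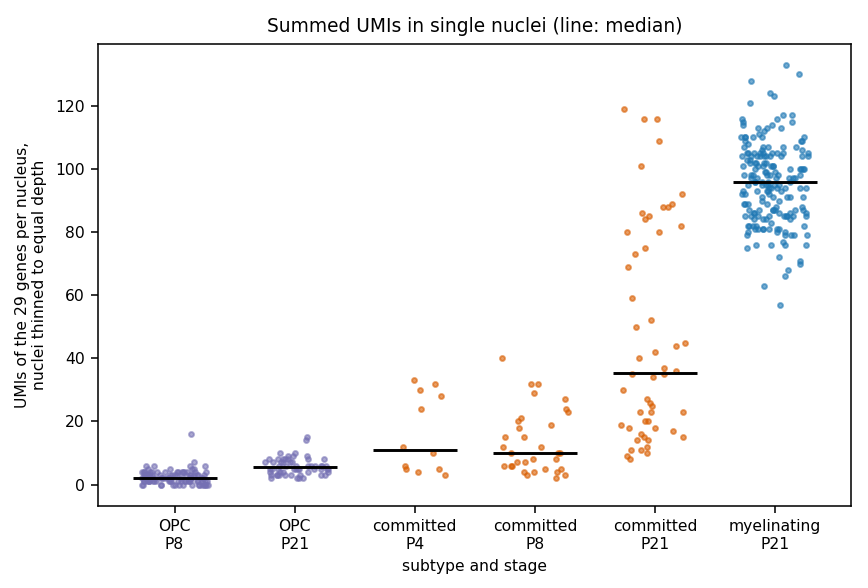
Summed UMIs of the 29 genes in single nuclei, each thinned to 3100 UMIs, by subtype and stage; points are nuclei, spread sideways at random, and lines are medians. Committed nuclei at P21 extend from 8 to 119 UMIs around a median of 35.5, between OPC at P21 (median 5.5) and myelinating nuclei (median 96).

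The single nucleus annotated as myelinating at P8 went against its label in part. It had 11350 UMIs, of which 136 were from the 29 genes: 99 from Mbp, 10 from Mag, 6 each from Cldn11 and Gjc3 and 5 from Ugt8a, with 0 from Mobp, Mog, Mal, Opalin, Prr5l, Aspa and Enpp2. On the side of its label, its Mbp was at 8722 CPM. Mbp was at 8825 CPM in myelinating nuclei at P21 and 2265 CPM in committed nuclei at P8. Its sum of the 29 genes was 11982 CPM, against 30986 CPM in myelinating nuclei at P21 and 4825 CPM in committed nuclei at P8. Its summed markers of committed cells were at 16300 CPM, close to the 15032 CPM of committed nuclei at that stage. This sum came from Bcas1 (88 UMIs), Fyn (49), Tcf7l2 (31) and Enpp6 (17). The other markers of the list, Bmp4, Gpr17 and Neu4, were at 0 UMIs, against 385, 414 and 252 CPM in committed nuclei at P8. The nucleus was left out of all subtype profiles, which needed 20 nuclei, and forms part of the P8 lineage values.

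OPC at P21 stood above OPC at P8 for these genes, and so did other classes of the same libraries, with excitatory neurons at 185 CPM at P8 and 349 CPM at P21. The OPC sum was 708, 826, 753 and 1770 CPM at E19, P4, P8 and P21, and from P8 to P21 the median log2 ratio was 0.92. Called higher were 6 genes (Mobp, Mal, Mag, Mog, Cldn11 and Cnp) and 0 lower (11 with 1 CPM added in place of 5, and 1 with 20 CPM), against a background of 0.397% higher and 0.442% lower among genes that reached 100 CPM, and 0.346% and 0.713% among genes with a UMI. None of these called genes reached 100 CPM in OPC. Of the 29 genes, 6 did reach it, and none of those was called. From P4 to P8, 0 of the 29 were called in OPC, where the background was 0.0428% and 0.128%, or 0.891% and 0.449% of genes with a UMI. Mobp went from 0 UMIs in 109 nuclei at P8 to 22 UMIs in 64 nuclei at P21, or 0.344 UMIs per nucleus (0.215 to 0.520). In nuclei of other classes of the same library, after removal of 4 nuclei with as many UMIs of the 29 genes as a myelinating nucleus, Mobp was at 0.222 UMIs per excitatory neuron, 0.252 per inhibitory neuron, 0.247 per astrocyte and 0.266 per vascular leptomeningeal nucleus. The OPC value therefore did not differ from this background beyond counting error. In all, 10 genes were higher in OPC at P21 than at P8 with CPM intervals that did not overlap, and 4 genes (Pllp, Gjc3, Ugt8a and Fa2h) were above all 4 other classes at P21 with an interval that did not reach them. Both held for Gjc3 and Ugt8a. None of the 6 genes called from P8 to P21 was above all 4 other classes in this way. No share over all genes is given for these rules, so the counts describe the 29 genes only. Gjc3 was at 0.275 UMIs per OPC at P8 and 1.02 at P21 (0.784 to 1.29) against at most 0.321 in the other classes, and Ugt8a at 0.413 and 0.797 (0.593 to 1.05) against at most 0.281.

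In the other classes at P21, the 29 genes summed to 349 CPM in 682 excitatory neurons, 359 CPM in 740 inhibitory neurons, 738 CPM in 287 astrocytes and 1209 CPM in 139 vascular leptomeningeal nuclei. A single excitatory nucleus of subtype EN11, with 244143 UMIs, held 778 of the 5094 UMIs in excitatory neurons, and without it their sum was 300.5 CPM. After removal of the 4 nuclei named above (2 excitatory, 1 inhibitory and 1 endothelial), 12 genes had UMIs per nucleus within 2-fold over the 4 largest classes: Mobp, Mal, Pllp, Opalin, Mag, Mog, Cnp, Ermn, Anln, Ugt8a, Fa2h and Myrf. These nuclei were chosen by their UMIs of the same genes. With all excitatory nuclei kept, Pllp, Ugt8a, Fa2h and Myrf were more than 2-fold apart. Fa2h was then at 0.161 UMIs per excitatory neuron, against 0.0767 per astrocyte. No share over all genes is given for this 2-fold rule, so its counts describe the 29 genes only. Per-nucleus values of these classes at P21 below are without the 4 nuclei. Mog was at 0.153, 0.156, 0.157 and 0.151 UMIs per excitatory, inhibitory, astrocyte and vascular leptomeningeal nucleus, although the median nucleus of these classes held 19591, 13991, 5525 and 6228 UMIs, and Cnp was at 0.340, 0.337, 0.352 and 0.309. Myelinating nuclei of the same library stood far above it, at 36.2 UMIs for Mobp and 18.4 for Mog. At P8 Mobp was at 1 UMI in 867 excitatory neurons and 0 in 1088 inhibitory neurons.

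A further 15 genes differed by more than 2-fold between the 4 classes; Gjb1 and Trf were at 0 in at least 1 of them and were not placed. Aspa was at 1.41 UMIs per vascular leptomeningeal nucleus (1.22 to 1.62), 0.775 per nucleus annotated as epithelial and 0.282 per astrocyte, against 0.0471 and 0.0474 in excitatory and inhibitory neurons and 5.81 in myelinating nuclei. Enpp2 was at 3.04 UMIs per vascular leptomeningeal nucleus (2.75 to 3.34) and 1.28 and 0.865 in excitatory and inhibitory neurons, against 0.206 per astrocyte. In the 40 nuclei annotated as epithelial, 3 epithelial or ependymal markers (Ttr, Foxj1 and Ccdc153) summed to 7.28 CPM with 1 at 0. The same nuclei held 666 CPM of 4 vascular leptomeningeal and 706 CPM of 5 astrocyte markers. With so short a list of epithelial markers the name could not be judged. Nuclei so annotated held 2.48 UMIs of Cldn11 (2.01 to 3.01) and 1.43 of Ndrg1 (1.08 to 1.85), against at most 0.676 and 0.338 in the 4 larger classes. For Ndrg1 this was of the size seen in myelinating nuclei (1.11). Gjc3 and Car2 were higher in astrocytes (0.321 and 0.376) than in vascular leptomeningeal nuclei (0.0144 and 0.0504), and Gal3st1 was higher in excitatory and inhibitory neurons (0.409 and 0.280) than in astrocytes (0.0244). Tspan2 was at 0.549 and 0.380 in the neurons against 0.164 and 0.151 in astrocytes and vascular leptomeningeal nuclei. Mbp was at 0.960 and 1.07 in the neurons against 0.449 and 0.504, and it was already at 0.214, 0.320 and 0.444 UMIs per inhibitory neuron at E19, P4 and P8.

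**Figure D5:**
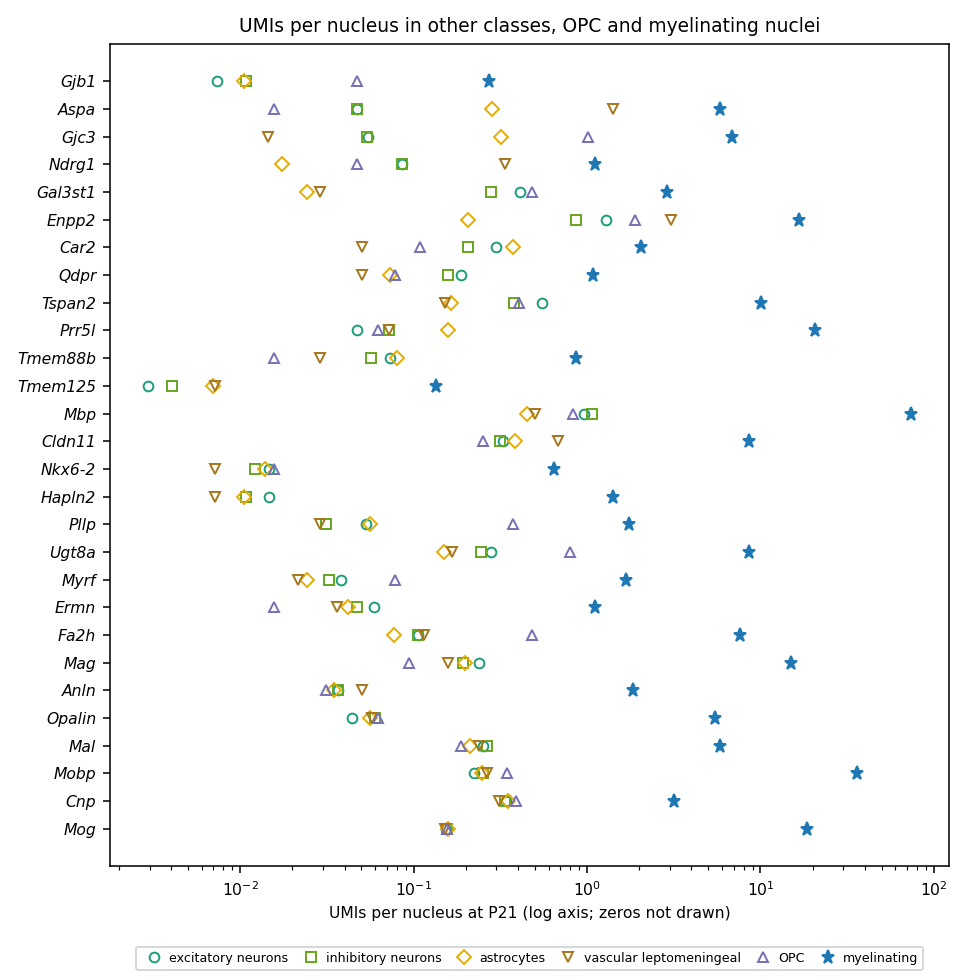
UMIs per nucleus at P21 (log axis) of 28 genes in the 4 largest other classes, without the 4 nuclei with high sums, and in OPC and myelinating nuclei; genes are ordered from even (Mog, bottom) to uneven across the 4 classes. The 4 classes nearly coincide for Mog, Cnp, Mobp and Mal and spread over more than 10-fold for Aspa, Gjc3, Ndrg1, Gal3st1 and Enpp2.

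Other genes of the pathway were read from 6 lists, between OPC and myelinating nuclei at P21 and with the same 4-fold rule, whose background was 13.5% higher and 18.8% lower among genes that reached 100 CPM, and 3.39% and 6.28% among genes with a UMI. Of 16 sterol synthesis genes, of which 5 reached 100 CPM, 3 were called higher and 0 lower (median log2 ratio 1.29): Msmo1 at 269 against 40.1 CPM, Fdft1 at 145 against 20.03 CPM and Hmgcs1, an early enzyme of the pathway, at 295 against 46.7 CPM. Within committed nuclei, 4 of the 16 were called higher at P21 than at P8, against 6.82% of genes that reached 100 CPM and 2.45% of genes with a UMI. In the lineage as a whole 1 of the 16 was, against 10% and 2.15%. Of 14 sphingolipid and fatty acid genes, 3 were called higher and 0 lower (median 0.50), with Elovl7, a fatty acid elongase, at 589 against 26.7 CPM. Of 14 genes of axon-glia contact, 5 were called higher and 0 lower (median 1.46), among them Cntn2, a contactin, at 308 against 23.4 CPM and Tspan15, a tetraspanin, at 173 against 10.0 CPM. Of 19 further genes of mature oligodendrocytes, 10 were called higher and 0 lower (median 2.39), led by Plekhh1 (768 against 10.0 CPM) and Sept4 (794 against 23.4 CPM). The opposite direction was found among 15 precursor and commitment genes, of which 0 were called higher and 10 lower (median -5.27), with Pdgfra, the growth factor receptor of OPC, at 3.19 against 761 CPM. Among 18 transcription factors, 2 were called higher and 5 lower (median -0.58): St18 was at 5105 against 104 CPM and Zfp536 at 2544 against 291 CPM, whereas Sox6 was at 14.7 against 2150 CPM and Sox5 at 25.5 against 1566 CPM.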

How the data were processed

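Nuclei of pooled superior colliculus were captured with 10x Genomics 3′ v3 chemistry and processed with Cell Ranger 3.0.2 against an mm10 pre-mRNA reference, per the labels' protocols. The deposited matrix holds raw UMI counts for 31053 genes, and the authors deposited the stage, class, subtype and percent of mitochondrial UMIs of each nucleus. The sources used here do not say how nuclei were filtered, doublets removed, libraries integrated, classes named or strand counted. A further 7 value columns were not used. One label gives another embryonic day; the stage column and sample title, E19, were used.

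Counts were summed per library and class or subtype and scaled to CPM (Python 3.11.15, numpy 2.4.6, scipy 1.17.1, pandas 2.3.3). No nuclei were removed except where stated. Subtype profiles needed 20 nuclei. Log2 ratios had 5 CPM added; folds against 0 used 3 counts per profile as an upper limit. Intervals were exact, at 95%. With 1 library a stage no p-value was computed. The steps were tested on simulated data. All 29 genes are named. The genes, lists and comparisons were chosen with earlier results of these data known. Positions are from GENCODE M21 (GRCm38, mm10), 1-based. Of the 29 genes, 3 overlap a gene on the same strand and 11 a gene on the opposite strand, so the overlap may affect their counts. The sources used here do not name the authors' annotation release. Nuclei were thinned once with a fixed seed.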

Additional observations from a re-analysis of the deposited data

How the results depend on the processing

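With 1 library a stage, no library could be left out. No paired analysis was possible because the 4 stages share no replicate numbers beyond 1 and no test was made. For the median log2 ratio in the lineage, 20 CPM added in place of 5 gave 2.47 (P21 over P4) and 2.45 (P21 over P8), and subtypes weighted alike gave 1.04 and 1.18. Only OPC had 20 nuclei at both P4 and P21, and in that weighting 3 genes were lower at P21 than at P4: Fa2h (-0.26), Hapln2 (-1.13) and Myrf. The ratio within committed nuclei was 1.08 with 20 CPM added, and that within OPC was 1.61 over genes of at least 20 CPM. The number of genes called between OPC and myelinating nuclei was 22 to 24 under all alternatives. The number called within OPC from P8 to P21 was 11 with 1 CPM and 1 with 20 CPM added; within committed nuclei it was 13 and 6. Without Trf, an alternative chosen after seeing the data, no count of calls changed between OPC and myelinating nuclei. The summed fold of P21 over P8 in the lineage was 13.5 with nuclei weighted alike, 12.6 without the nucleus of most UMIs of these genes and 14.1 with median-of-ratios scaling; in all nuclei it was 10.9 with nuclei weighted alike. Median-of-ratios scaling shifted the median of all genes by 0.26 (lineage, P21 over P8), 0.34 (P21 over P4), 0.29 (committed), 0.04 (OPC) and 0.25 (myelinating over OPC) on the log2 scale. In other classes at P21, weighting nuclei alike gave 337 CPM in excitatory neurons, 417 CPM in inhibitory neurons and 804 CPM in astrocytes; without the top nucleus excitatory neurons were at 300.5 CPM; without Mbp the 4 classes were at 280 (excitatory), 288 (inhibitory), 659 (astrocyte) and 1132 CPM (vascular leptomeningeal). The cause of these shifts was not tested. Differences of a few UMIs in the 33 committed nuclei of P8 or the 64 OPC of P21 were not detectable at this depth.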

Other observations

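One nucleus annotated as excitatory neuron subtype EN7 at P4, with 29828 UMIs, held 418 UMIs of the 29 genes, among them 85 of the 86 Mobp UMIs of all 2386 nuclei of that library. It also held 214 UMIs of Mbp, 37 of Mag, 12 each of Fa2h and Ugt8a, and 0 of Prr5l, Aspa, Mal, Opalin, Ermn and Hapln2. In the P4 lineage nuclei Mobp was at 0.

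Ratios of single genes to Mobp were compared between myelinating nuclei and the 4 largest other classes at P21. Mal stood at 0.161 UMIs per Mobp UMI in myelinating nuclei (0.151 to 0.172) and at 0.859 in astrocytes (0.600 to 1.23), 0.892 in vascular leptomeningeal nuclei, 1.05 in inhibitory and 1.13 in excitatory neurons. Cnp stood at 0.0876 in myelinating nuclei and at 1.16 to 1.53 in the same 4 classes. Opalin stood at 0.151 in myelinating nuclei (0.141 to 0.161), and the intervals of astrocytes (0.225, 0.122 to 0.392), vascular leptomeningeal nuclei (0.216, 0.0870 to 0.472) and excitatory neurons (0.199, 0.130 to 0.295) reached this value, whereas that of inhibitory neurons (0.237, 0.166 to 0.330) did not. Prr5l stood at 0.567 in myelinating nuclei (0.545 to 0.590), 0.634 in astrocytes (0.426 to 0.934), 0.270 in vascular leptomeningeal nuclei (0.120 to 0.554), 0.285 in inhibitory and 0.212 in excitatory neurons. The ratios of Mal and Cnp thus differed from those of myelinating nuclei in all 4 classes beyond counting error, that of Prr5l in the neurons and that of Opalin in inhibitory neurons.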
